A study of Mus musculus with 6 samples.

Results

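MicroRNAs of the miR-17-92 and miR-106b-25 clusters were followed as guide strands, the arm of each hairpin held to mainly enter the silencing complex. The term follows the names of the arms, and for Mir106b the other arm was read more in most libraries. They were found by name in the deposited read tables, which gave 9 mature miRNAs of 1055 listed. The miR-17-92 cluster contributes miR-17, miR-18a, miR-19a, miR-20a, miR-19b and miR-92a, and the miR-106b-25 cluster contributes miR-106b, miR-93 and miR-25. All 9 had at least 100 reads in every library, the lowest value being 122 reads for miR-18a in wild-type replicate 1. Small RNA came from whole brains of adult female sibling mice of strain 129SV, aged 5.5 months, with 3 wild-type and 3 Adar2-/- animals and a separate library for each brain. All animals of both groups were homozygous for Gria2 R/R, an allele that encodes the edited receptor and without which Adar2-/- mice die young, and all descend from crosses of heterozygous parents. The deletion affects the whole animal, and a whole brain holds every cell type of that organ. ADAR2 deaminates adenosines to inosines in double-stranded RNA and can bind miRNA precursors, and the comparison asks whether its absence changes how much of each mature miRNA is present.

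Both clusters are transcribed as long primary transcripts from which Drosha and then Dicer release each miRNA. They are best known from dividing cells. miR-17-92 is driven by MYC, is amplified in lymphomas and is required for development of heart, lung and B cells. miR-106b-25 lies within Mcm7, the gene of a DNA helicase subunit that licenses replication, and is induced with it by E2F factors. In the nervous system both clusters are linked to expansion of neural progenitors, so the adult brain, with few dividing cells, is a tissue in which their level is an open measurement.

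On build NCBIM37 (mm9) the 6 hairpins of miR-17-92 lie on the plus strand of chromosome 14 between 115442893 and 115443728, in the order Mir17, Mir18, Mir19a, Mir20a, Mir19b-1 and Mir92-1. All 6 are exonic in both annotated transcripts of the non-coding host gene Mir17hg, which spans 115442101 to 115445949. The 3 hairpins of miR-106b-25 lie on the minus strand of chromosome 5 between 138606549 and 138607046, in the order Mir106b, Mir93 and Mir25. Each is intronic in 2 annotated transcripts of Mcm7 (138605811 to 138613650, minus strand), and Mir93 and Mir25 each also overlap an exon of 1 other transcript. The mature sequences of miR-19b and miR-92a are also encoded by Mir19b-2 (50095160 to 50095243) and Mir92-2 (50095015 to 50095105) on the minus strand of chromosome X, so their reads cannot be assigned to 1 locus.

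The mature sequences of the 9 guide strands follow, from RefSeq on build GRCm38.p6, since the groups compared are defined by them. Capitals mark the seed, bases 2 to 8, with which a miRNA pairs to its targets. RefSeq sequences were matched for 9 of 9 guide strands. The first 4 share the miR-17 seed and repress inhibitors of the cell cycle such as Cdkn1a.
miR-17: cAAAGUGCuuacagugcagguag
miR-20a: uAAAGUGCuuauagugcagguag
miR-106b: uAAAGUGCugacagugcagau
miR-93: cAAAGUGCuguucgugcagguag
miR-18a is the lone one of the 9 with the miR-18 seed.
miR-18a: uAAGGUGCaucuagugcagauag
The miR-19 seed is carried by miR-19a and miR-19b, known as the main oncogenic part of miR-17-92.
miR-19a: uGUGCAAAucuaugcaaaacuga
miR-19b: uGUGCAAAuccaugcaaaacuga
The miR-92 seed links the clusters, since miR-92a comes from miR-17-92 and miR-25 from miR-106b-25. miR-92a restrains vessel growth, and both are known to repress the apoptosis gene Bcl2l11.
miR-92a: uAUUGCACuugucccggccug
miR-25: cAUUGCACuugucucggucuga

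Some of these sequences are nearly identical, and the authors' mapping allowed about 2 mismatches. Counted from 1 at the 5′ end, miR-19a and miR-19b differ by U11C alone, and miR-17 and miR-20a by C1U and C12U. Outside the 9, miR-17 differs from miR-106a by U10A alone, and miR-92a from miR-92b by U10C and G21C over the bases compared. Reads of such pairs could have been exchanged in the deposited counts, and how often that happened was not tested.

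The 3 wild-type libraries held 12449633 to 23471819 mapped miRNA reads and the 3 Adar2-/- libraries 18645810 to 23935544, and 399 miRNAs reached 100 reads in every library. Levels are given in RPM, the reads of a miRNA for every 1000000 miRNA reads mapped in that library. Where 3 values follow each other, they are those of replicates 1 to 3. The 95% Wilson intervals of single values reached at most 17.8% of the value to either side for miR-18a, 14.03% for miR-92a and 6.48% for the other 7. They cover counting error only, as reads are not independent molecules. The 8 miRNAs chosen as markers of brain were present in every library and summed to between 158068 and 196726 RPM, of which miR-9 was the largest part. Blood and immune cell miRNAs, 7 of 7 present in every library, summed to 1882 to 4035 RPM in wild type and 2558 to 3408 in Adar2-/-. Several libraries stood apart. miR-375 of pituitary reached 3294 RPM in wild-type replicate 1 against at most 113 in the others, and the 3 sensory miRNAs miR-183, miR-96 and miR-182 summed to 19158.5 RPM in Adar2-/- replicate 3 against 89664 to 186903 in the others. Fewer cells of a type and less miRNA per cell cannot be told apart in whole-brain RNA.

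Taken as a group the 9 guide strands were a small part of brain miRNA, from 0.172% to 0.246% of the mapped miRNA reads of a library. Their summed level was 2464, 1890.04 and 2234 RPM in the wild-type brains and 1724, 2349.5 and 2366 RPM in those without ADAR2. The genotypes overlapped, with means of 2196 ± 289 (SD, n = 3) and 2147 ± 366 (SD, n = 3) RPM. Among the 399 miRNAs the most read member, miR-93, ranked 100 by mean level and the least read, miR-18a, ranked 351.

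**Figure D1:**
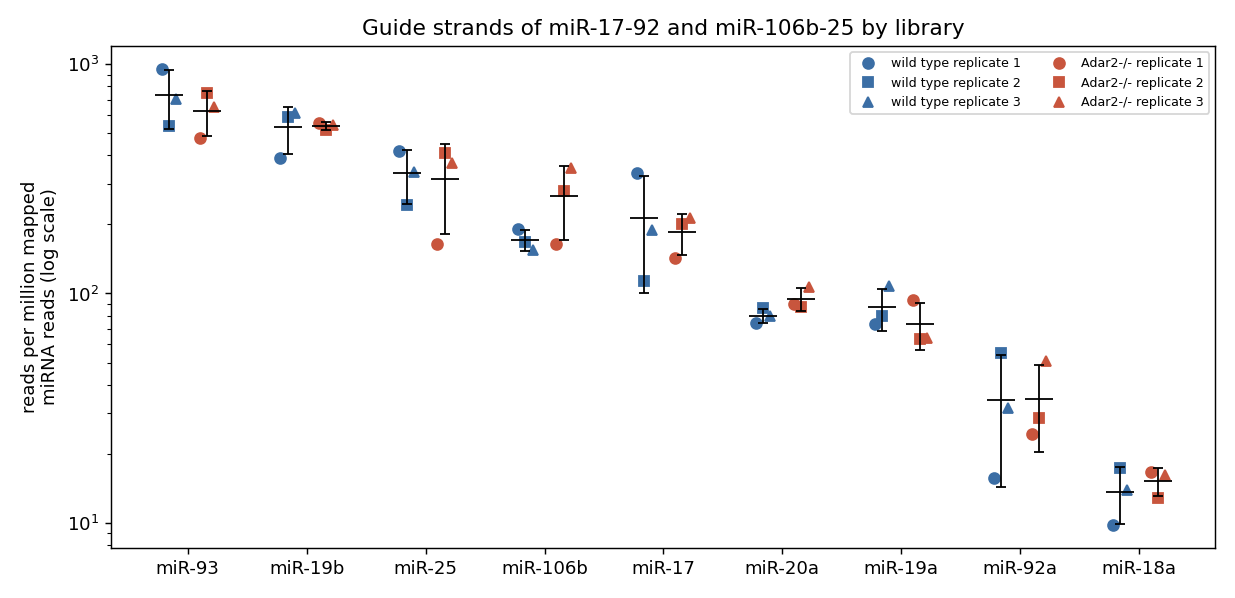
Levels of the 9 guide strands in RPM on a log scale, ordered by mean level; each point is 1 library, with bars for the mean and SD of 3 libraries per genotype. miR-93 runs from 474 to 955 RPM and miR-18a from 9.80 to 17.4 RPM, and miR-20a is the member whose 2 genotypes do not overlap.

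By mean RPM over the 6 libraries the order was miR-93 (679), miR-19b (534), miR-25 (325), miR-106b (218), miR-17 (199), miR-20a (87.3), miR-19a (80.3), miR-92a (34.4) and miR-18a (14.4). The 9 are 21 to 23 bases long and a read covers a whole mature strand, so levels were not divided by length. How evenly different sequences are turned into reads was not tested. Orders, sums, shares and arm ratios here therefore compare reads rather than molecules. Not every step of this order exceeded the spread over libraries. miR-17 lay above miR-20a, and miR-19a above miR-92a, in 6 of 6 libraries without overlap of their ranges. miR-92a lay above miR-18a within each of the 6 libraries although their ranges overlapped. miR-93 was above miR-19b in 4 of 6 libraries, miR-19b above miR-25 in 5, miR-25 above miR-106b in 5, miR-106b above miR-17 in 4 and miR-20a above miR-19a in 4, so these neighbours were not separated. Members encoded by miR-17-92 alone stood far apart, as miR-17 and miR-18a did.

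Summed by cluster, miR-17-92 gave 898, 943 and 1032 RPM in the wild-type brains and 922, 907 and 993 RPM in the Adar2-/- brains. These 6 values stayed within 1.15-fold of each other. Each member varied more than the sum, of which miR-19b supplied 43.4% to 62.7%. In wild-type replicate 1, miR-17 was at its highest (335 RPM) and miR-19b at its lowest (389 RPM). The miR-106b-25 sum was 1566, 948 and 1202 RPM in wild type and 802, 1442 and 1373 in Adar2-/-, a range of 1.95-fold. It was high in wild-type replicate 1 and low in Adar2-/- replicate 1, and the genotypes overlapped for both clusters. The coefficient of variation over the 6 libraries was 5.58% for miR-17-92 and 24.3% for miR-106b-25. With TMM factors, which scale libraries on the bulk of miRNAs, these became 10.97% and 15.8%, so the gap between the clusters was narrower under that scaling. For miR-17-92 the wild-type mean was 957 ± 68.6 RPM and the Adar2-/- mean 941 ± 45.9 RPM (SD, n = 3 each). For miR-106b-25 they were 1238 ± 311 and 1206 ± 351 RPM (SD, n = 3 each). The differences between genotypes, −0.03 and −0.04 on the log2 scale, were smaller than the pooled SD of 0.09 and 0.42 between libraries of a genotype.

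The 3 guide strands of miR-106b-25 together exceeded the 6 of miR-17-92 in 5 of 6 libraries. The ratio of the miR-17-92 sum to the miR-106b-25 sum was 0.573, 0.995 and 0.859 in wild type and 1.15, 0.629 and 0.724 in Adar2-/-. On the log2 scale the wild-type mean was −0.34 ± 0.41 and the Adar2-/- mean −0.31 ± 0.46 (SD, n = 3 each). The balance of the clusters varied more between libraries of 1 genotype than between the genotypes.

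**Figure D2:**
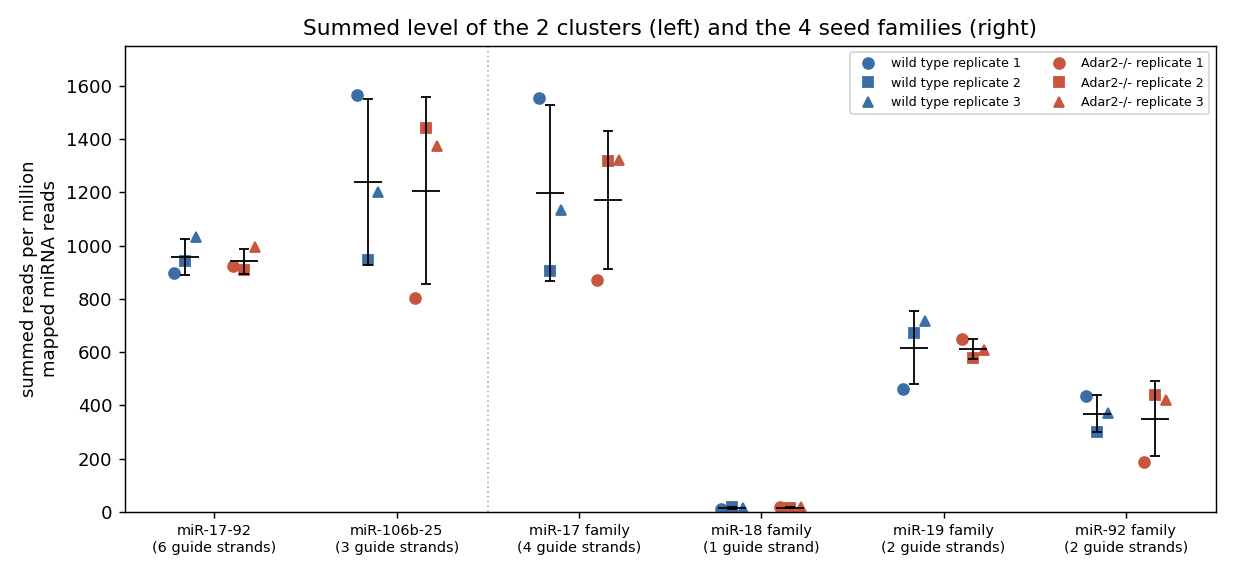
Summed levels in RPM for the 2 clusters (left of the dotted line) and the 4 seed families (right); each point is 1 library, with bars for the mean and SD of 3 libraries per genotype. The miR-17-92 sum lies between 898 and 1032 RPM in all 6 libraries, while the miR-106b-25 sum runs from 802 to 1566 RPM.

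Grouped by seed, the miR-17 family took the largest share of the 9 in every library, from 47.8% to 63.1%. The miR-19 family took 18.8% to 37.7%, the miR-92 family 10.9% to 18.7% and the miR-18 family 0.398% to 0.964%. Within the miR-17 family the joint part of miR-106b and miR-93, both of miR-106b-25, was steady. Together they supplied 73.7%, 77.9% and 76.2% of the family's reads in wild type and 73.3%, 78.1% and 75.8% in Adar2-/-. Single members were less steady, as the ratio of miR-106b to miR-93 ran from 0.200 to 0.541 over the libraries. The miR-92 family was supplied mainly by miR-25, which took 81.5% to 96.4% of its reads. The miR-19 family came mainly from miR-19b, with 84.1% to 89.4%. Most reads with the miR-17 and miR-92 seeds among the 9 were thus of guide strands encoded within Mcm7, which holds none with the miR-19 seed.

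No seed family separated the genotypes. The wild-type and Adar2-/- means of the miR-17 family were 1197 ± 330.5 and 1170.35 ± 259.97 RPM (SD, n = 3 each). The miR-19 family stood at 617 ± 136 and 611 ± 36.2 RPM (SD, n = 3 each), and the miR-92 family at 368 ± 68.8 and 349.8 ± 140.4 RPM (SD, n = 3 each). The miR-92 family was lowest in Adar2-/- replicate 1, at 188 RPM, and between 298 and 440.4 RPM in the other 5 libraries.

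The third, related cluster, miR-106a-363 on chromosome X, was read little in the strands that it alone encodes. miR-106a stood at 2.11 to 6.83 RPM, miR-20b at 4.17 to 12.0 and miR-363-3p at 0.402 to 1.29, and miR-18b had 0 to 3 reads per library. Of the 7 miRNAs outside the 9 that share 1 of the 4 seeds, only miR-92b and miR-32 reached 100 reads in every library, both with the miR-92 seed. miR-92b, encoded on another chromosome than either cluster, was read more than miR-92a in each library, at 65.6, 205.5 and 87.1 RPM in wild type and 94.8, 94.9 and 163 RPM in Adar2-/-. miR-32 stood at 18.7 to 29.8 RPM. edgeR passed 0 of the 2 at an adjusted p under 0.05 and 0 at an unadjusted p under 0.05 (0% and 3.26% of all tested), with log2 fold changes of −0.02 (standard error 0.456) and −0.01 (standard error 0.330).

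Genotype was tested for each guide strand with edgeR's quasi-likelihood method over all 399 miRNAs, with positive log2 fold changes higher in Adar2-/-. Of the 9, 0 passed an adjusted p under 0.05, where the share of all tested miRNAs was 0%. At an unadjusted p under 0.05 the count was again 0 of 9, against 3.26% of all tested. DESeq2 gave 0 of 9 at both thresholds, against 0.251% and 10% of all tested. The log2 fold change was above 0 for 5 and below 0 for 4, with a median of 0.01 beside 0.0023 for all tested miRNAs. Every 95% interval of a member included 0, and they reached from −1.12 for miR-17 to 1.41 for miR-106b, so changes up to these bounds were not excluded.

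By a rule for reproducible change that the study used for its counts, the same direction in all 3 replicates and at least 1.3-fold in the mean (without the test that its lists of miRNAs add), 0 of 9 were higher and 0 of 9 lower, against 5.51% and 4.26% of all tested. A single member, miR-20a, kept 1 direction in all 3 replicates, where 16% of all tested did, and 9.02% in its direction, higher in Adar2-/-. With TMM factors, or with totals that omit the 5 most read miRNAs, its replicate 2 ratio was below 1 (0.865 and 0.889), so that it no longer did.

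**Figure D3:**
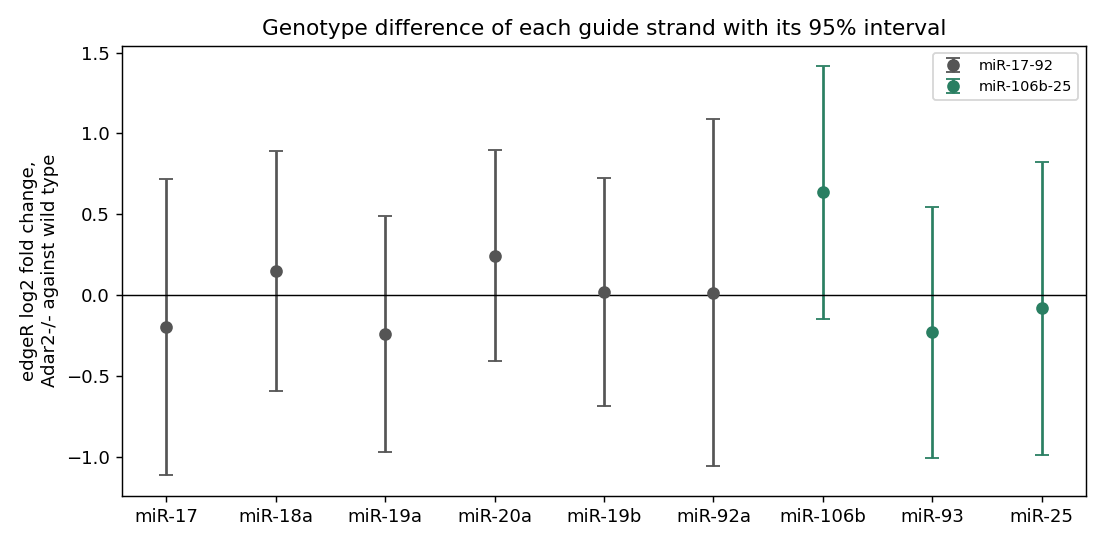
edgeR log2 fold change of Adar2-/- against wild type for each guide strand (3 libraries per genotype), with bars for the 95% interval; grey points are miR-17-92 and green points miR-106b-25. All 9 intervals include 0, and miR-106b has the highest value, 0.63.

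Among the miR-17 family, miR-106b had the largest difference of the 9. Its level was 191, 167 and 155 RPM in the wild-type brains and 164, 280.1 and 352 RPM in the Adar2-/- brains. Adar2-/- replicates 2 and 3 lay above all wild-type libraries, whereas replicate 1 lay among them, and wild type itself was tight at 171 ± 18.4 (SD, n = 3). The log2 fold change was 0.63 (standard error 0.351), with an edgeR adjusted p of 0.988 and a 95% interval from −0.15 to 1.41. Without Adar2-/- replicate 1 it was 0.89 (adjusted p = 0.305), without replicate 1 of both genotypes 0.97 (adjusted p = 0.0735), and without Adar2-/- replicate 3 it was 0.38 (adjusted p = 0.995, all from edgeR). Adar2-/- replicate 3, the highest, was also the library with few reads of the sensory miRNAs. Some miRNAs of other marker lists were high in the same libraries as miR-106b, and most were not. Adar2-/- replicates 2 and 3 were the highest 2 libraries for 3 of the 8 brain markers (miR-124, miR-128 and miR-137), for 1 of 2 of oligodendrocytes (miR-338-3p), for 1 of 3 of vessels (miR-145) and for 0 of 20 on the other lists, a pattern looked for after the values were seen and found in 21.6% of all tested. miR-128, for example, stood at 689.7, 386 and 436 RPM in wild type and 457, 849 and 1319 RPM in Adar2-/-. The remaining brain markers lacked this pattern, and miR-9, the most read of them, was lowest in Adar2-/- replicate 3 (99104 RPM). The part of these markers in the result was not tested. Over all alternatives the edgeR or DESeq2 adjusted p ran from 0.0735 to 0.998. With TMM factors the 3 ratios within replicates became 1.09, 1.43 and 2.12, so that miR-106b met the rule for reproducible change there, as did 8.52% of all tested in that direction.

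miR-20a, of miR-17-92, was the sole member whose genotypes did not overlap in RPM, against 5.76% of all tested. It stood at 74.5, 86.0 and 79.4 RPM in wild type and 89.6, 87.3 and 107 RPM in Adar2-/-. The gap between the genotypes, from 86.0 to 87.3 RPM, was narrow, and the log2 fold change was 0.24 (standard error 0.294, edgeR adjusted p = 0.988). With TMM factors, or with totals that omit the 5 most read miRNAs, the genotypes of miR-20a overlapped. With TMM factors the member without overlap was instead miR-106b, against 10.8% of all tested. In RPM miR-20a was also the steadiest of the 9, with an SD of log2 RPM over the 6 libraries of 0.18, beside a median of 0.45 over all tested.

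miR-17 shares its seed and primary transcript with miR-20a yet varied differently. Its level was 335, 113 and 189.7 RPM in wild type and 142, 201 and 212 RPM in Adar2-/-, highest in wild-type replicate 1 and lowest in wild-type replicate 2. The log2 fold change was −0.20 (standard error 0.412, edgeR adjusted p = 0.989). Within a library miR-17 exceeded miR-20a between 1.32-fold in wild-type replicate 2 and 4.50-fold in wild-type replicate 1. When miR-17, miR-20a, miR-106a and miR-20b were summed before the fit, the log2 fold change of the sum was −0.074 (edgeR adjusted p = 0.992).

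miR-93 stood at 955, 537 and 708 RPM in wild type and 474, 750.3 and 651 RPM in Adar2-/-, with a log2 fold change of −0.23 (standard error 0.349, edgeR adjusted p = 0.989). miR-25, from the same introns, stood at 420.0, 243 and 339 RPM in wild type and 164, 412 and 370.1 RPM in Adar2-/-, with a log2 fold change of −0.08 (standard error 0.407, edgeR adjusted p = 0.989). For both, wild-type replicate 1 was the highest library and Adar2-/- replicate 1 the lowest, so that the genotypes overlapped widely.

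The ratios of all 36 pairs of the 9 were compared between genotypes, and 1 pair was picked after these values were seen. It sets miR-106b against miR-93, the next hairpin of the same transcript. The ratio of miR-106b to miR-93 was 0.200, 0.311 and 0.219 in wild type and 0.346, 0.373 and 0.541 in Adar2-/-. The genotypes did not overlap, and the difference was 0.79 on the log2 scale (two-sided exact permutation test, p = 0.1, the smallest that 3 libraries against 3 allow). Any pair without overlap gets this p, so it adds nothing to the separation. miR-106b with miR-93 was the 1 pair of the 36 among the 9 that separated the genotypes, where 8.75% of all pairs of tested miRNAs did so. The ratio of miR-106b to miR-25 was 0.455, 0.688 and 0.457 in wild type and 1.00, 0.680 and 0.951 in Adar2-/-, and there the genotypes touched.

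The miR-19 and miR-18 seeds gave small differences of both signs. miR-19b stood at 389, 590.5 and 610.2 RPM in wild type and 556, 514 and 543 RPM in Adar2-/-, with a log2 fold change of 0.02 (standard error 0.317, edgeR adjusted p = 0.989). miR-19a stood at 73.5, 79.9 and 108 RPM in wild type and 93.4, 63.3 and 64.1 RPM in Adar2-/-, with a log2 fold change of −0.24 (standard error 0.328, edgeR adjusted p = 0.988). For miR-19a, Adar2-/- replicates 2 and 3 were the lowest libraries and wild-type replicate 3 the highest. miR-18a stood at 9.80, 17.4 and 13.8 RPM in wild type and 16.6, 12.8 and 16.1 RPM in Adar2-/-, with a log2 fold change of 0.15 (standard error 0.332, edgeR adjusted p = 0.989).

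miR-92a varied most of the 9, with an SD of log2 RPM of 0.68. It stood at 15.7, 55.3 and 31.6 RPM in wild type and 24.3, 28.7 and 50.7 RPM in Adar2-/-, and both extremes were wild-type libraries. The log2 fold change was 0.01 (standard error 0.482, edgeR adjusted p = 0.997). miR-92b, which differs by U10C and G21C, was likewise lowest in wild-type replicate 1 and highest in wild-type replicate 2.

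The 3 members that start with cytidine had like profiles over the libraries, while those that start with uridine were alike mainly in wild-type replicate 1. This grouping was chosen after the values were seen and is given without a test. miR-17, miR-93 and miR-25 start with cytidine and come from both clusters and from 2 seed families. Relative to its own mean over the 6 libraries each was high in wild-type replicate 1, by 0.83, 0.53 and 0.44 on the log2 scale. Each was low in wild-type replicate 2, at −0.73, −0.30 and −0.34, and in Adar2-/- replicate 1, at −0.40, −0.48 and −0.91. The other 6 start with uridine, and all 6 lay below their mean in wild-type replicate 1, from −0.999 for miR-92a to −0.10 for miR-19a. The share of all tested miRNAs below their mean in that library was not counted, so this has no background beside it. Elsewhere these 6 spread widely, from −0.31 for miR-106b to 0.81 for miR-92a in wild-type replicate 2 and from −0.30 for miR-19a to 0.76 for miR-106b in Adar2-/- replicate 3.

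**Figure D4:**
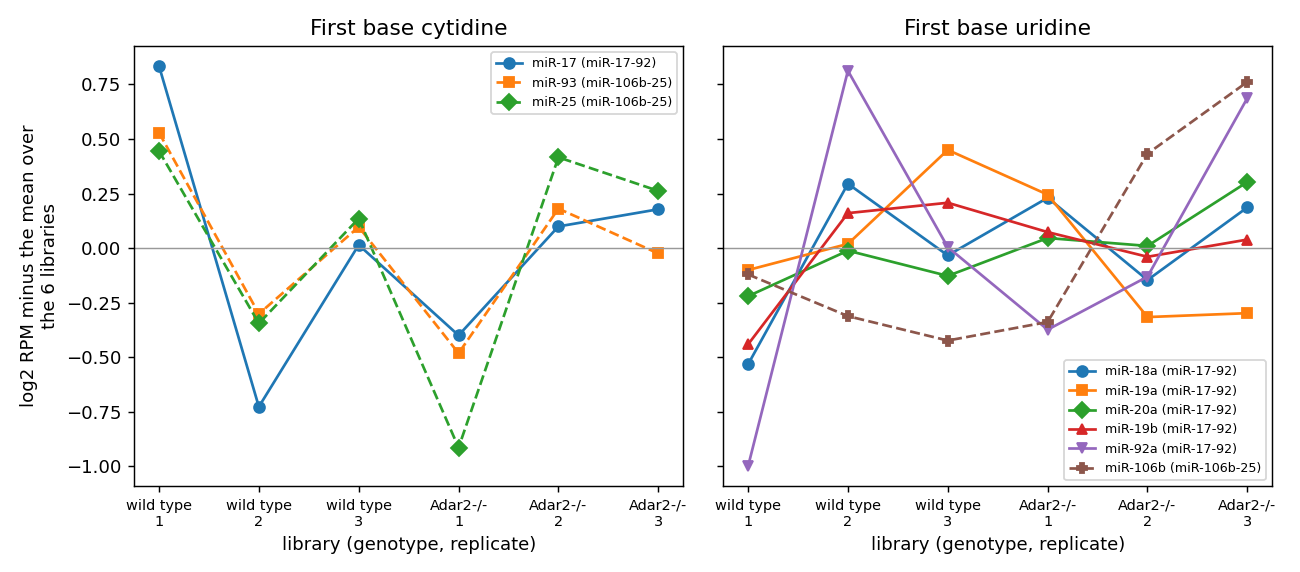
Deviation of log2 RPM from its mean over the 6 libraries for the 3 guide strands that start with cytidine (left) and the 6 that start with uridine (right); solid lines are miR-17-92, dashed lines miR-106b-25, and lines only join the points of 1 miRNA. The left panel shows 3 parallel profiles from both clusters, each high in wild-type replicate 1 (0.44 to 0.83) and low in Adar2-/- replicate 1 (−0.91 to −0.40).

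How closely 2 members moved together was measured as the SD of their log2 ratio over the 6 libraries, which is free of depth and scaling. The closest pairs were miR-18a with miR-19b (0.17), miR-20a with miR-19b (0.23) and miR-18a with miR-20a (0.23), each within miR-17-92 and with different seeds. They were followed by miR-93 with miR-25 (0.26) and by miR-17 with miR-93 (0.26), which belong to different clusters. The widest was miR-17 with miR-92a (1.10), both from miR-17-92, whose ratio changed 10.4-fold over the libraries. The median SD was 0.40 for the 18 pairs with the same first base and 0.67 for the 18 with different ones, although the same-base pairs miR-19a with miR-92a (0.78), miR-19a with miR-106b (0.76) and miR-92a with miR-106b (0.71) exceeded the latter. For pairs of the same cluster it was 0.51 and of different clusters 0.59, and for pairs of the same seed 0.50 and of different seeds 0.58. Pairs share members and libraries, so these medians are descriptions. The first-base grouping was picked from these same profiles, so its lower median is built in and cannot be set against those of cluster and seed.

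The relatives outside the 9 gave a partial match to this grouping, but most of them are not an independent check. miR-106a and miR-20b differ from miR-17 by 1 and 2 bases, and miR-92b from miR-92a by 2 over the bases compared. Reads were few, at 48 to 95 per library for miR-106a and 95 to 166 for miR-20b. Whether reads exchanged with the members shaped these profiles was not tested. miR-106a and miR-20b, which start with cytidine, were high in wild-type replicate 1, by 1.02 and 0.93 on the log2 scale, and low in wild-type replicate 2, at −0.67 and −0.60, but stood at −0.04 and −0.28 in Adar2-/- replicate 1. miR-92b and miR-32, which start with uridine, were low in wild-type replicate 1, at −0.74 and −0.26. RefSeq names gave a single possible first base for only 176 of the 399 tested miRNAs (44.1%), so a check over all of them is void. Wild-type replicate 1 also had the fewest reads and the highest miR-375, and the part of these in the pattern was not tested.

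The miRNAs whose profiles over the 6 libraries were nearest to the mean profile of each cluster were sought among 385 tested miRNAs outside the 9, their star arms and their relatives. The measure was the root mean square difference of log2 RPM after centring, whose median over these miRNAs was 0.423 for each cluster. For miR-17-92 the nearest were miR-101a (0.0801), miR-770-5p (0.0942) and miR-770-3p (0.108). For miR-106b-25 they were miR-140* (0.0712), miR-1839-5p (0.0921) and miR-191 (0.127). The mean profile of miR-17-92 was nearly flat, from −0.24 to 0.18, because its members went opposite ways. In wild-type replicate 1, for example, miR-17 stood at 0.83 and miR-92a at −0.999. A miRNA that varies little thus lies near this mean without moving with single members.

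Each star arm comes from the same precursor as its guide strand, and the ratio of the arms does not depend on the library total. Of the 11 star entries, 3 reached 100 reads in every library, namely miR-20a*, miR-106b* and miR-93*. edgeR passed 0 of these 3 at an adjusted p and 0 at an unadjusted p under 0.05, beside 0% and 3.26% of all tested. The star arms of miR-19a, miR-19b and miR-92a had at most 11 reads in a library, and miR-25* had 5 to 39.

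Mir106b differed from the other hairpins in that its star arm was read more than its guide in 5 of 6 libraries. The arms, with the seed in capitals, are
miR-106b: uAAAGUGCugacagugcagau
miR-106b*: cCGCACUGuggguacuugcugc
miR-106b* stood at 419, 319 and 423 RPM in wild type and 298, 362 and 324 RPM in Adar2-/-, with a log2 fold change of −0.24 (standard error 0.304, edgeR adjusted p = 0.988). Guide reads divided by star reads were 0.456, 0.524 and 0.366 in wild type and 0.551, 0.775 and 1.08 in Adar2-/-. Every Adar2-/- library lay above every wild-type library, though the gap, from 0.524 in wild-type replicate 2 to 0.551 in Adar2-/- replicate 1, was narrow. On the log2 scale the means were −1.17 ± 0.26 for wild type and −0.37 ± 0.49 for Adar2-/- (SD, n = 3 each), a difference of 0.80 (two-sided exact permutation test, unadjusted p = 0.1, the smallest that 3 against 3 allow). Of 102 hairpins with both arms at 100 reads in every library, 9.8% separated the genotypes in either direction. This ratio and that of miR-106b to miR-93 share the reads of miR-106b, so the 2 separations are not independent. Without Adar2-/- replicate 3 the difference was 0.56, and without replicate 3 of both genotypes it was 0.42.

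**Figure D5:**
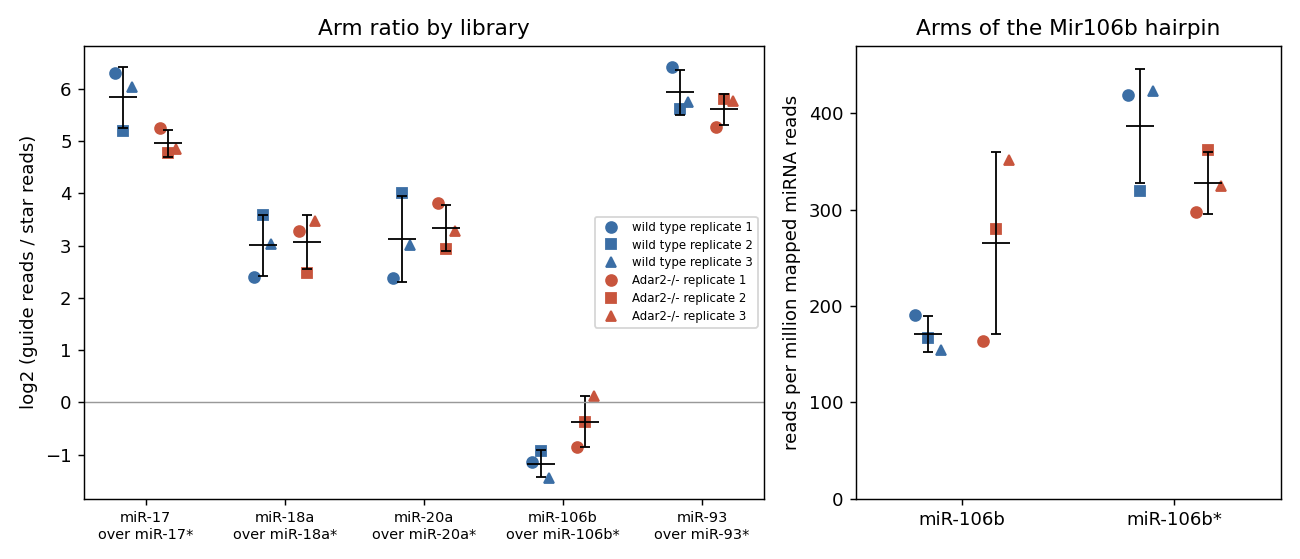
Left, log2 ratio of guide to star reads for the 5 hairpins with at least 10 reads on both arms in every library; right, levels in RPM of both arms of Mir106b; each point is 1 library, with bars for the mean and SD of 3 libraries per genotype. The genotypes of miR-106b over miR-106b* do not overlap, at −1.45 to −0.93 in wild type and −0.86 to 0.12 in Adar2-/-, while those of the other 4 hairpins do.

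The other arms showed no such separation. For miR-20a over miR-20a* the log2 ratio was 2.37, 4.01 and 3.01 in wild type and 3.81, 2.93 and 3.29 in Adar2-/- (difference 0.22, two-sided exact permutation test, p = 0.8). For miR-93 over miR-93* it was 6.43, 5.62 and 5.75 in wild type and 5.26, 5.80 and 5.77 in Adar2-/- (difference −0.32, p = 0.6 in the same exact test). With at least 10 reads on both arms, miR-17 over miR-17* gave 6.30, 5.19 and 6.03 in wild type and 5.24, 4.77 and 4.85 in Adar2-/- (difference −0.88, p = 0.2 in the same exact test), from 53 to 176 reads of miR-17*. miR-18a over miR-18a* differed by 0.07 (p = 0.9 in the same exact test). The 5 comparisons of arms are given with unadjusted p-values.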

How the data were processed

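The authors removed adaptors with Cutadapt, mapped reads of 36 bases with NextGenMap at 90% identity to the mature miRNAs of miRBase release 16, and deposited raw read counts per miRNA without normalization, in 3 tables of 1 wild-type and 1 Adar2-/- library each. Reads with several equally good hits were weighted, and how these weights became whole numbers is not given in the sources used here. The 12 blank lines were dropped. Columns were assigned by the genotype in their name and the replicate number of their table. Neither Adar2 mRNA nor editing was analysed here, so the genotype of each library was not checked again. The paper reports a lower share of A to G mismatches in Adar2-/- miRNA reads than in wild type. RPM used the total mapped miRNA reads. The quasi-likelihood test of edgeR 4.0.16 (R 4.3.3) was applied to 399 miRNAs, those reaching 100 reads in each library, with these totals as library sizes and without a block. P-values were adjusted by the Benjamini-Hochberg method and judged at 0.05. DESeq2 1.42.0 was an alternative. For single ratios an exact permutation test (two-sided) was used. The edgeR and DESeq2 fits were tested on simulated counts with known changes. Hairpin positions came from GENCODE M1 on NCBIM37, and table names were paired with RefSeq arms by hand. Named miRNAs are the 9 guide strands, their star arms, same-seed relatives and the 3 nearest profiles per cluster. Members and lists were chosen with earlier results of these data known. Other values came from Python 3.11.15 with scipy 1.17.1, pandas 2.3.3 and numpy 2.4.6, and the plots from matplotlib 3.10.9.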

Additional observations from a re-analysis of the deposited data

How the results depend on the processing

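The number of guide strands passing edgeR stayed at 0 under each of the 18 alternatives, namely TMM factors, totals that omit the 5 most read miRNAs, DESeq2, a minimum of 10 reads or none, a replicate block with and without TMM factors, near-identical miRNAs summed, miR-92a summed with miR-92b, and each library or replicate number left out. Of all tested miRNAs 4.51% passed without replicate 1, 0.251% under DESeq2 and 0% in the others. Under the replicate block miR-106b stood at 0.57 (adjusted p = 0.983) and the count remained 0. The main fit did not take the replicate numbers as pairs, because the study describes no such block. Same-numbered brains did not deviate together (r of −0.0010, −0.076 and −0.014). The rule for reproducible change and the ratios within replicates do set same-numbered libraries against each other, and other pairings were not tried for them. Summing miR-92a with miR-92b was chosen after seeing the data. The direction of miR-106b was kept in 16 of 16 alternatives. Log2 fold changes near 0 reversed for miR-19b, to −0.018 with the 5 most read omitted from the totals, −0.026 under DESeq2 and −0.014 when summed with miR-19a. They reversed for miR-92a, to −0.077 with TMM factors, −0.10 with the 5 most read omitted, −0.13 under DESeq2 and −0.014 when summed with miR-92b. miR-20a reversed to −0.074 when summed with its near-identical relatives. With TMM factors 1 guide strand, miR-106b, was higher by the 1.3-fold rule, and with at least 10 reads 5 hairpins entered the arm comparison. With a library or replicate number left out, values ran from −0.56 to 0.45 for miR-17, −0.11 to 0.47 for miR-18a, −0.56 to 0.031 for miR-19a, 0.14 to 0.35 for miR-20a, −0.18 to 0.14 for miR-19b, −0.42 to 0.66 for miR-92a, 0.31 to 0.97 for miR-106b, −0.56 to 0.17 for miR-93 and −0.51 to 0.43 for miR-25. The count higher by the rule ran from 0 to 3, the latter without replicate 1 (miR-17, miR-106b and miR-25, against 35.3% of all tested). Without replicate 2 it was 2 (miR-18a and miR-92a, against 12.3%). The count lower ran from 0 to 1, being miR-19a without replicate 1 (8.77% of all tested) and miR-93 without replicate 2 (20.6%). The log2 ratio of the genotype means ran from −0.07 to 0.03 for the miR-17-92 sum, −0.35 to 0.39 for miR-106b-25, −0.29 to 0.38 for the miR-17 family and −0.41 to 0.36 for the miR-92 family, and the difference in the ratio of the cluster sums from −0.45 to 0.38. The arm ratio difference ran from 0.42 to 1.07 for miR-106b, −0.40 to 0.86 for miR-20a and −0.57 to 0.10 for miR-93. The cause of these shifts was not tested. Each brain is 1 library, so the spread between brains and that between library preparations cannot be told apart.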
